A study of Homo sapiens with 6 samples.

Results

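The genes examined here are 10 members of the YAP/TEAD pathway, namely YAP1, WWTR1, TEAD1, LATS2, AJUBA, AMOTL2, CCN1, CCN2, ANKRD1 and AXL, taken by symbol from a deposited table of 23384 gene features. Each of the 10 symbols matched 1 feature, and all 10 passed the filter on low counts. The cells were CAL27, a line from a human squamous cell carcinoma of the tongue, kept in DMEM with serum. Of the 6 RNA-seq libraries, 3 came from wild-type cells transfected with a vector (controls) and 3 from cells transfected with a plasmid meant to overexpress (OE) TNFAIP2, which tumour necrosis factor induces. Nothing in the labels ties the libraries to separate cultures, so p-values measure only the spread between these libraries.

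YAP1 and WWTR1 (whose product is TAZ) encode transcriptional coactivators that bind no DNA themselves and reach it through TEAD factors such as TEAD1. The Hippo kinases, LATS2 among them, phosphorylate both coactivators and keep them out of the nucleus. AMOTL2 encodes an angiomotin family protein that holds YAP at junctions, and AJUBA a LIM protein that restrains LATS kinases. CCN1 (CYR61) and CCN2 (CTGF) encode secreted matricellular proteins, ANKRD1 a nuclear ankyrin repeat protein and AXL a receptor tyrosine kinase, and all 4 are widely read as target genes. LATS2, AMOTL2 and AJUBA are also known as targets, so that several members both act on the pathway and respond to it.

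Total counts per library ran from 3092261 to 3527161. TNFAIP2 under its own name had 194, 112 and 162 counts in the 3 controls, beside 194, 152 and 142 in the OE-labelled libraries, so its counts give no check of the labels, and the treated group is called OE-labelled here. All 10 squamous epithelial markers that were looked up were in the table, with a summed level of 1044 to 1390 CPM in controls and 1159 to 1413 CPM in OE-labelled libraries. CPM are counts scaled to library size, here with TMM factors. Of 16 fibroblast, endothelial and leukocyte markers, 8 were in the table, and COL3A1, LUM, DCN, PECAM1, VWF, KDR, TEK and PTPRC had no row in the table as used here. The 3 fibroblast genes summed to 1.08 to 3.24 CPM in controls and 1.75 to 5.59 CPM in OE-labelled libraries, the endothelial gene CDH5 to 5.42 to 9.43 and 4.70 to 11.9 CPM, and the 4 leukocyte genes to 0.323 to 2.53 and 0.874 to 3.73 CPM.

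The promoters of 2 target genes are shown because they carry the letters by which TEAD factors are known to bind. RefSeq promoter windows (GRCh38.p14, 250 bases before to 50 bases after a start site) matched 8 of the 10 members, all but TEAD1 and CCN1. They were searched on both strands for GGAATG, which equals CATTCC on the other strand. Below are the 250 bases upstream of the start of CCN2 (chr6:131951373-131951622, minus strand) and of ANKRD1 (chr10:90921088-90921337, minus strand), read 5′ to 3′ with each GGAATG in capitals.
CCN2: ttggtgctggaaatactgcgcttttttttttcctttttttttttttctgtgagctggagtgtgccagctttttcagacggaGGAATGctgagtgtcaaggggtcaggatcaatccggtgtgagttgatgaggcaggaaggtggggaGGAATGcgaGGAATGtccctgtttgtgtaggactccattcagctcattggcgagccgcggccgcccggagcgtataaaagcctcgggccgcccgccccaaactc
ANKRD1: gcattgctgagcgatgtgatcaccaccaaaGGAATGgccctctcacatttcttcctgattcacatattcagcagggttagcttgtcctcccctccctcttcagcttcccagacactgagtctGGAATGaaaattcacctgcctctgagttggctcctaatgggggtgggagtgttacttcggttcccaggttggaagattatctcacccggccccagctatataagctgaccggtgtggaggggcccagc

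CCN2 had 3 matches, at positions -169, -104 and -95 from the start site, a count that 0.128% of all 35116 promoter windows reached. ANKRD1 had 2 matches, at positions -220 and -128, which 1.37% of windows reached. At least 1 match was found in 7 of the 8 matched members (YAP1, LATS2, AJUBA, AMOTL2, CCN2, ANKRD1 and AXL), and in 14% of all windows. The first is a count of genes, where 1 matching window was enough, and the second a share of windows, so the 2 are not alike. AJUBA, AMOTL2 and AXL have 2 windows each, with the match only in the 1 further along the gene. Neither window of WWTR1 held the letters. The pattern TGANTCA (N, any base) is a looser form of the AP-1 motif and does not overlap GGAATG in its letters. Among the members it was found once, as TGATTCA at position -195 of ANKRD1, and 7.71% of all windows held it. These matches describe the letters in the windows and do not show binding in these cells.

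Only 4 of the 10 genes have a deposited feature with exons opposite theirs. At all 4, more counts lay on that feature than under the gene's own name. Over the whole table, features sharing at least 50 exonic bases with a protein-coding gene on the other strand held 68.3% of counts. Of these 5733 features only 2806 were noncoding. The share takes all counts of each feature, also where a small part of it lies opposite, so it is no measure of antisense counts. YAP1 (chromosome 11, 102110447 to 102233424, plus strand) had 243, 209 and 329 counts in controls 1 to 3 and 358, 286 and 409 in OE-labelled libraries 1 to 3, in order of replicate number. The lncRNA ENSG00000254422, whose 628 exonic bases all lie opposite exons of YAP1 (87 coding bases and 541 bases after the last coding base), had 1382, 2218 and 1821 counts in controls and 1743, 2043 and 1644 in OE-labelled libraries. Per exonic base the lncRNA thus held 59.3 times the counts of YAP1, over mean counts of the 6 libraries.

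WWTR1 (chromosome 3, 149517235 to 149736714, minus strand) had 71, 98 and 102 counts in controls and 144, 101 and 116 in OE-labelled libraries. WWTR1-AS1, of which 795 of 2603 exonic bases lie opposite WWTR1 (287 coding bases and 508 before the first coding base), had 1154, 1057 and 696 counts in controls and 852, 846 and 835 in OE-labelled libraries. Its density was 27.8 times that of WWTR1. CCN2 (chromosome 6, 131948176 to 131951372, minus strand) had 18, 32 and 17 counts in controls and 42, 35 and 22 in OE-labelled libraries. The lncRNA ENSG00000227220, of which 195 of 495 exonic bases lie opposite CCN2 (113 coding and 82 before the first coding base), had 162, 132 and 74 counts in controls and 93, 122 and 122 in OE-labelled libraries. AXL (chromosome 19, 41219223 to 41261766, plus strand) had 243, 240 and 347 counts in controls and 440, 300 and 387 in OE-labelled libraries. The lncRNA ENSG00000269652, of which 67 of 286 exonic bases lie opposite AXL, all coding, had 846, 600 and 384 counts in controls and 565, 669 and 660 in OE-labelled libraries. Counts of the features opposite WWTR1, CCN2 and AXL can thus also come from bases that are not opposite exons of these genes.

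In each of the 6 libraries, the feature opposite each of these 4 genes had the higher count. The closest were those of AXL in control replicate 3 and OE-labelled replicate 1, where own-name counts were 0.904 and 0.779 of those opposite. The ratio of own-name to opposite counts was 0.150 ± 0.0486 in controls and 0.198 ± 0.0548 in OE-labelled libraries for YAP1 (SD, n = 3; two-sided exact permutation p = 0.4, with 0.1 the smallest that 3 against 3 can give). For WWTR1 it was 0.100 ± 0.0430 and 0.142 ± 0.0250 (exact permutation p = 0.3), for CCN2 0.194 ± 0.0724 and 0.306 ± 0.137 (exact permutation p = 0.4), and for AXL 0.530 ± 0.328 and 0.605 ± 0.166 (exact permutation p = 0.7). These 4 raw p were not adjusted, and with 3 libraries a group none could pass. The libraries were prepared with a stranded kit, and the strand setting of the counting is not given in the sources used here. What share of their transcripts the own-name counts of the other 6 members hold was not measured, since no deposited feature has exons opposite theirs.

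**Figure D1:**
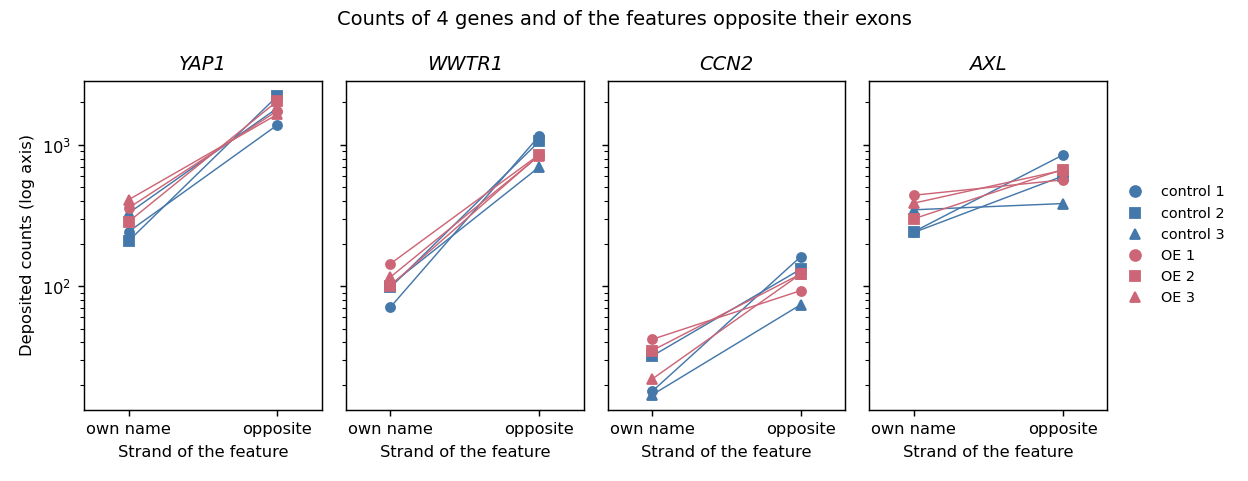
Deposited counts (log axis) of YAP1, WWTR1, CCN2 and AXL under their own names and of the features opposite their exons, with 1 line per library. Every line ends higher on the opposite side, from 1382 to 2218 counts opposite YAP1 against 209 to 409 under its name.

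Among the coactivators and their DNA-binding partner, values were slightly higher in the OE-labelled libraries and none passed the test. YAP1 had 87.8, 67.4 and 97.0 CPM in control replicates 1 to 3 and 93.6, 83.3 and 108.9 CPM in OE-labelled replicates 1 to 3. The groups overlapped, and the log2 fold change was 0.18 (SE 0.23, 95% interval -0.29 to 0.65, edgeR adjusted p = 0.874). WWTR1 had 25.7, 31.6 and 30.1 CPM in controls and 37.6, 29.4 and 30.9 CPM in OE-labelled libraries. Only OE-labelled replicate 1 lay above all controls there, and the log2 fold change was 0.16 (SE 0.28, 95% interval -0.43 to 0.75). TEAD1 (chromosome 11, 12674421 to 12944737, plus strand) had 7.23, 6.13 and 10.6 CPM in controls and 12.5, 11.9 and 14.6 CPM in OE-labelled libraries. Every OE-labelled value of TEAD1 was above every control value. Its log2 fold change of 0.70 (SE 0.42, 95% interval -0.17 to 1.57) was the largest of the 10 and had an unadjusted p = 0.111 and an edgeR adjusted p = 0.830. It rests on 19 to 55 counts per library.

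The inhibitors and adaptors did not share a direction. LATS2 (chromosome 13, 20973036 to 21061586, minus strand) had 3.62, 4.84 and 15.6 CPM in controls and 14.4, 12.5 and 10.1 CPM in OE-labelled libraries. Control replicate 3 had the highest value of all 6 libraries and the other 2 controls the lowest, and the log2 fold change was 0.60 (SE 0.50, 95% interval -0.44 to 1.64, edgeR adjusted p = 0.839). Without control replicate 3 it was 1.53 (edgeR adjusted p = 0.0621), and 0.26 without control replicate 1. AJUBA (chromosome 14, 22971177 to 22982551, minus strand) had 51.0, 38.4 and 73.4 CPM in controls and 83.1, 52.2 and 69.2 CPM in OE-labelled libraries, which gave a log2 fold change of 0.33 (SE 0.27, 95% interval -0.23 to 0.89). For AJUBA it was 0.61 without control replicate 3 (edgeR adjusted p = 0.131), 0.52 without OE-labelled replicate 2, and 0.16 without control replicate 2 or OE-labelled replicate 1. AMOTL2 (chromosome 3, 134355347 to 134375479, minus strand) had 92.5, 57.7 and 56.0 CPM in controls and 64.8, 57.7 and 70.0 CPM in OE-labelled libraries. Its highest value was that of control replicate 1, and the log2 fold change of -0.097 (SE 0.25, 95% interval -0.62 to 0.42) turned to 0.17 without that library. It also turned with library totals in place of TMM (0.083). AMOTL2 shares 187 exonic bases with the pseudogene RPL39P5 on its own strand, and AJUBA 50 with the gene model AL132780.3. How reads in such shared bases were counted is not given.

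Among the target genes, none passed the test. CCN1 and AXL had higher own-name means in the OE-labelled libraries, with overlapping groups, and CCN2 and ANKRD1 rested on few counts. CCN1 (chromosome 1, 85580761 to 85584589, plus strand) had 86.0, 65.5 and 67.5 CPM in controls and 93.1, 85.1 and 101.9 CPM in OE-labelled libraries. Only OE-labelled replicate 2 lay within the range of the controls, just below control replicate 1. The log2 fold change was 0.36 (SE 0.22, 95% interval -0.11 to 0.82, edgeR adjusted p = 0.830), and over all the alternatives of the fit it ran from 0.28 to 0.53. AXL had 87.8, 77.4 and 102.3 CPM in controls and 115, 87.4 and 103.0 CPM in OE-labelled libraries. Its log2 fold change was 0.19 (SE 0.22, 95% interval -0.26 to 0.64, edgeR adjusted p = 0.863).

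CCN2 had 6.51, 10.3 and 5.01 CPM in controls and 11.0, 10.2 and 5.86 CPM in OE-labelled libraries. Each group held 1 or more low and 1 or more high values, and the log2 fold change was 0.31 (SE 0.49, 95% interval -0.71 to 1.33). Without control replicate 2 it was 0.67 and without OE-labelled replicate 3 it was 0.53. It was 0.087 without control replicate 3 and 0.14 without OE-labelled replicate 1. ANKRD1 (chromosome 10, 90912096 to 90921087, minus strand) had 2.17, 3.87 and 9.43 CPM in controls and 5.23, 6.12 and 2.66 CPM in OE-labelled libraries. Control replicate 3 was the highest of the 6, the log2 fold change was -0.16 (SE 0.64, 95% interval -1.49 to 1.17), and without that library it was 0.61. ANKRD1 rests on 6 to 32 counts per library and CCN2 on 17 to 42, and both varied widely within each group.

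**Figure D2:**
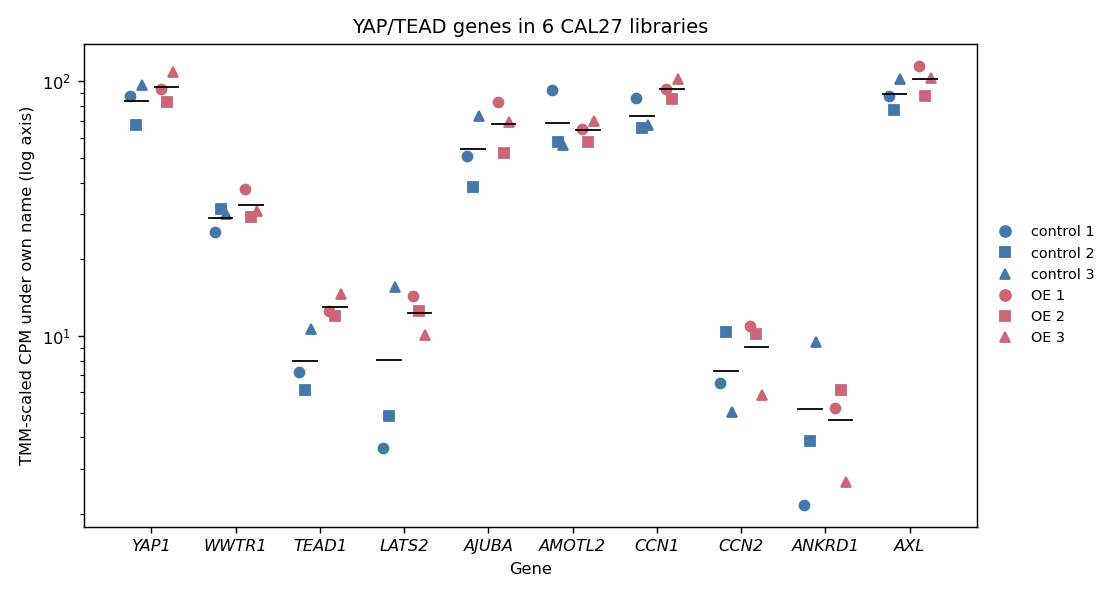
TMM-scaled CPM (log axis) of the 10 genes under their own names, with 1 point per library (blue, control, and red, OE-labelled) and a black bar at each group's mean. TEAD1 is the gene whose groups do not overlap, and LATS2 and ANKRD1 show the widest spread among controls.

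In all, 0 of the 10 genes passed an edgeR adjusted p of 0.05, beside 0% of the 11851 genes tested. At an unadjusted p under 0.05 the count was 0 of 10, where 1.83% of all tested genes were higher and 3.06% lower at that limit. DESeq2 and limma-voom also called 0 of the 10, with 3 and 1 calls over all genes. The groups did not overlap, with the OE-labelled libraries higher, for 1 of the 10 genes (TEAD1), against 5.54% of all tested genes. Positive log2 fold changes were found for 8 of the 10, against 51.9% of all tested genes and 62.0% of the 9057 tested protein-coding genes. Their median was 0.25, beside 0.02 over all tested genes and 0.13 over the tested protein-coding genes. The squamous epithelial markers, which belong to no pathway list, also had positive values for 8 of 10, with a median of 0.19.

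Set in order of mean level per kilobase of exon in controls, CCN1 led with 29.7 CPM per kilobase. It was followed by AXL (17.3), YAP1 (13.4), AMOTL2 (11.5) and AJUBA (9.07), then by WWTR1 (3.46), CCN2 (3.11), ANKRD1 (2.61), LATS2 (1.44) and TEAD1 (0.777), all in CPM per kilobase. Over the 6 libraries the range of CCN1 (26.7 to 41.5) lay above that of AXL (15.0 to 22.3), and the range of AJUBA (6.42 to 13.9) lay above that of WWTR1 (3.05 to 4.47). All other neighbours in this order had ranges that overlapped. The order is that of own-name counts, and features opposite 4 of these genes held more.

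The features opposite the members had negative log2 fold changes, as most such features did, and none passed. WWTR1-AS1 had 417, 341 and 205 CPM in controls and 223, 247 and 222 CPM in OE-labelled libraries, so that control replicate 3 lay below all 3 OE-labelled values. Its log2 fold change was -0.48 (SE 0.23, 95% interval -0.95 to -0.0085) with an unadjusted p = 0.0464 and an edgeR adjusted p = 0.830. Without control replicate 3 it was -0.72 (edgeR adjusted p = 0.00647), past the threshold. In that fit 7.41% of the 12443 tested genes passed, and 408 of those 922 were lower. The features opposite YAP1, CCN2 and AXL had log2 fold changes of -0.24 (SE 0.20), -0.41 (SE 0.33) and -0.24 (SE 0.29). Of these 4, 0 were positive, beside 28.7% of the 4343 tested features opposite a protein-coding gene (median -0.21) and 14% of the 1905 noncoding ones among them (median -0.29).

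**Figure D3:**
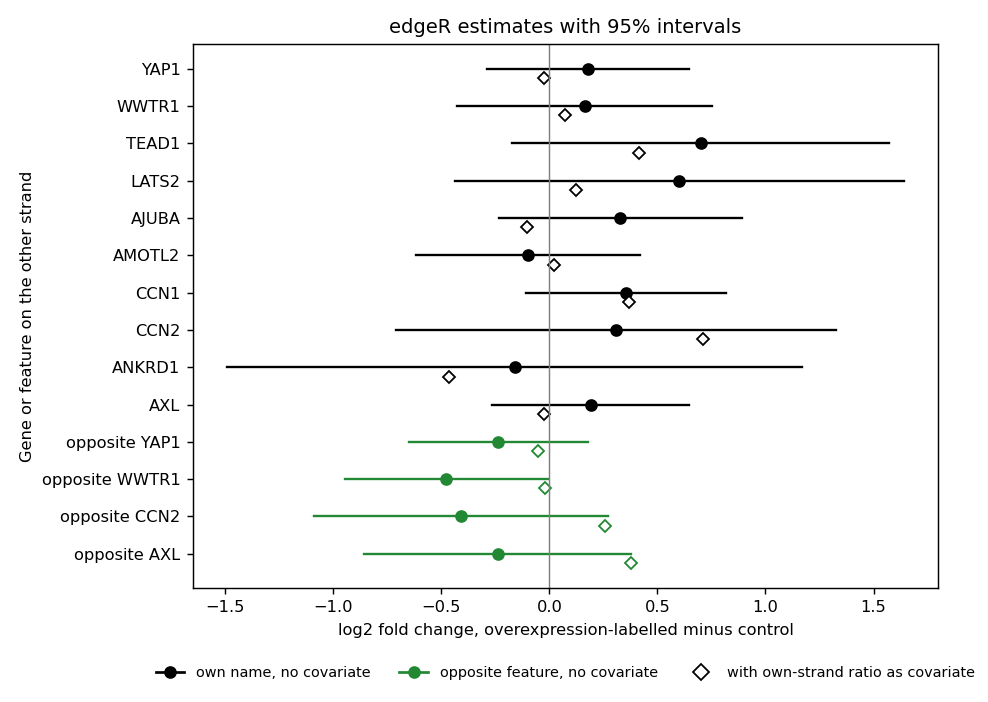
Log2 fold changes (OE-labelled minus control) with 95% intervals for the 10 genes under their own names (black) and for 4 opposite features (green), from edgeR. The interval of WWTR1-AS1 is the one that leaves out 0, and open diamonds show the estimates of the fit that holds the own-strand ratio as a further term.

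The libraries also differed in how many counts lay on a gene's own strand, and the members did not all follow that difference. The own-strand ratio is the median, over 369 features lying almost wholly within exons of a gene on the other strand, of that gene's own count over the feature's count. The lncRNA opposite YAP1 is among these features. Controls 1 to 3 had ratios of 0.102, 0.0991 and 0.180, and OE-labelled libraries 1 to 3 had 0.198, 0.134 and 0.192. The group means were 0.127 ± 0.0459 and 0.175 ± 0.0353 (SD, n = 3; two-sided exact permutation p = 0.2). The smallest p that 3 against 3 can give is 0.1, so this test could not pass the threshold whatever the ratios.

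Control replicates 1 and 2, with the lowest ratios, held the lowest value of 3 and 5 of the 10 genes. The library of OE-labelled replicate 1, with the highest ratio, held the highest value of 4, and OE-labelled replicate 3 of 3. Control replicate 3, with the third highest ratio, held the lowest value of 2 genes (CCN2 and AMOTL2) and the highest of 2 (LATS2 and ANKRD1), and control replicate 1 held the highest value of 1 (AMOTL2). CCN1 was low in control replicate 3, at 0.28 below its own mean on the log2 scale. As deviations from each gene's own mean log2 CPM, the median over the 10 genes was -0.21, -0.31 and 0.089 in controls 1 to 3 and 0.28, -0.0052 and 0.13 in OE-labelled replicates 1 to 3. For the 4 opposite features the medians were 0.71, 0.34 and -0.50 in controls and -0.27, 0.090 and -0.16 in OE-labelled libraries. In both, control replicate 3 had the sign of OE-labelled replicates 1 and 3.

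With log2 of each library's own-strand ratio in the fit, 6 of the 10 log2 fold changes were positive and their median was 0.048. Over all tested genes in that fit 48.2% were positive, with a median of -0.014. The ratio comes from the same counts and averaged 0.127 in controls and 0.175 in OE-labelled libraries. With 6 libraries this fit cannot fully separate ratio from group, so its estimates are not corrected effects. YAP1 was at -0.027 (SE 0.21), AXL at -0.026 (SE 0.20) and AJUBA at -0.10 (SE 0.24). CCN1 stayed at 0.37 (SE 0.23), TEAD1 was at 0.41 (SE 0.45) and CCN2 at 0.71 (SE 0.58). LATS2 went from 0.60 to 0.12 (SE 0.47), WWTR1 from 0.16 to 0.075 (SE 0.30), ANKRD1 from -0.16 to -0.47 (SE 0.67) and AMOTL2 from -0.097 to 0.021 (SE 0.27). The features opposite WWTR1 and YAP1 were at -0.020 (SE 0.18) and -0.053 (SE 0.16), and those opposite CCN2 and AXL at 0.26 (SE 0.32) and 0.38 (SE 0.23). None of the members or opposite features passed the threshold in that fit.

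**Figure D4:**
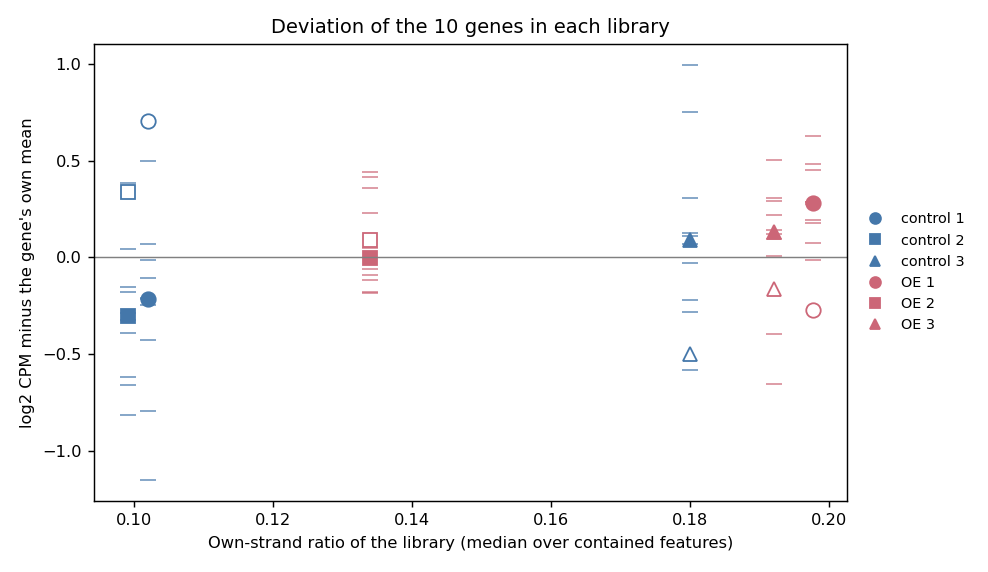
Deviation of each gene's log2 CPM from its own mean, plotted against the own-strand ratio of the library. Dashes are the 10 genes, filled symbols their median and open symbols the median of the 4 opposite features, and the filled symbols lie lowest in control replicates 1 and 2 (-0.21 and -0.31), where the open ones lie highest (0.71 and 0.34).

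The other genes of the pathway, 59 in 4 lists, also had mostly positive values and no calls. Of these, 57 were in the table and 53 passed the filter, and 0 passed the threshold in either direction by edgeR, DESeq2 or limma-voom. Positive log2 fold changes were found for 42 of the 53 (median 0.28), against 51.9% of all tested genes and 62.0% of the tested protein-coding ones. Once the own-strand ratio was a term of the fit, 26 of 53 were positive, beside 48.2% of all tested genes. At an unadjusted p under 0.05 there was 1 gene, FRMD6, a FERM-domain gene upstream of the Hippo kinases, at 11.3 ± 1.13 CPM in controls and 19.8 ± 6.91 CPM in OE-labelled libraries (unadjusted p = 0.0430, edgeR adjusted p = 0.830). The groups did not overlap for FRMD6 and, on the lower side, for TGFB2, a growth factor gene, at 8.90 ± 1.91 and 5.05 ± 0.868 CPM. Of all tested genes, 1.83% were higher and 3.06% lower at an edgeR unadjusted p under 0.05. Without overlap, 5.54% were higher and 4.92% lower. FRMD6 and TGFB2 were named after their values were seen.

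Of the 13 tested Hippo kinase and adaptor genes, 11 had a positive log2 fold change (median 0.27). The most abundant were MAP4K4, a kinase that activates LATS kinases, at 88.3 ± 25.5 CPM in controls and 122 ± 13.4 CPM in OE-labelled libraries, and WWC1, which encodes the scaffold KIBRA, at 86.4 ± 23.0 and 94.8 ± 10.4 CPM. NF2, the gene of the tumour suppressor merlin, had 39.2 ± 3.34 and 53.9 ± 11.0 CPM, and TAOK2, an upstream kinase gene, 29.6 ± 14.9 and 35.5 ± 2.98 CPM. MOB1B did not pass the filter.

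Other TEAD and VGLL genes were evenly divided, with 2 of 4 positive (median 0.049). VGLL4, which encodes a competitor of YAP for TEAD, had 29.6 ± 9.52 CPM in controls and 21.8 ± 1.10 CPM in OE-labelled libraries. TEAD4 had 21.0 ± 6.53 and 18.5 ± 1.75 CPM, TEAD3 7.41 ± 4.84 and 9.59 ± 1.88 CPM, and TEAD2 2.68 ± 1.25 and 3.20 ± 1.76 CPM. Per kilobase of exon, TEAD4 had 9.25 CPM in controls and 8.16 in OE-labelled libraries, TEAD3 2.43 and 3.15, TEAD2 0.898 and 1.07 and TEAD1 0.777 and 1.27. By own-name counts TEAD4 thus stood highest of the 4 TEAD genes, and its lowest library (7.36) lay above the highest of TEAD3 (4.26). Protein-coding genes with exons partly opposite held more counts for VGLL4 and TEAD2. As means of the 6 libraries, ATG7 (1596 of 8833 exonic bases opposite VGLL4) had 768.5 counts against 85.5. CD37 had 110.8 against 10.0 for TEAD2.

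Scaffold and junction regulators had 13 of 15 positive values (median 0.36). The 14-3-3 genes YWHAE, YWHAZ and YWHAQ, whose products hold phosphorylated YAP in the cytoplasm, had 241 ± 123, 142 ± 100.3 and 101 ± 16.3 CPM in controls. In OE-labelled libraries they had 313 ± 48.1, 209 ± 75.2 and 122 ± 5.63 CPM. CTNNA1, the gene of α-catenin at adherens junctions, had 80.2 ± 17.8 and 103 ± 15.1 CPM. Each of these differences lay within the overlap of the groups, and YWHAE and YWHAZ varied most among controls.

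Other YAP/TEAD target genes had 16 of 21 positive values (median 0.25). THBS1, the thrombospondin 1 gene, had 680 ± 192 CPM in controls and 879 ± 132 CPM in OE-labelled libraries (edgeR adjusted p = 0.830, overlapping groups). F3, the tissue factor gene, had 269 ± 185 and 343 ± 109 CPM. IGFBP3, an insulin-like growth factor binding protein gene, had 174 ± 14.7 and 196 ± 10.3 CPM, and FJX1, a Golgi kinase homologue gene, 186 ± 73.2 and 184 ± 52.3 CPM.

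Leaving out control replicate 3 changed the calls for the pathway genes that are not among the 10. Of 53 tested, 8 then passed by edgeR, or 15.1%, beside 7.41% of the 12443 genes tested in that fit. That background is not a like one, since it covers features of all types and both directions, with 514 calls higher and 408 lower. All 8 were higher, with log2 fold changes of 1.65 for FAT1, 1.49 for MOB1A, 1.25 for YWHAZ, 1.05 for F3, 0.85 for YWHAE, 0.79 for MYOF, 0.72 for MAP4K4 and 0.61 for THBS1. The controls left in that fit are the 2 libraries with the lowest own-strand ratios, and how far the ratio bears on these 8 calls was not tested. The 8 genes were named after their values were seen. Of the 10 members, 0 passed there.

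Opposite-strand features of the other pathway genes were close to the background of such features. Of 17 tested features that share at least 50 exonic bases with such a gene, 3 (17.6%) had a positive log2 fold change (median -0.25) and 0 passed. Among all tested features opposite a protein-coding gene 28.7% were positive (median -0.21), and among the noncoding ones 14% (median -0.29). The groups did not overlap, with OE-labelled libraries lower, for 2 of the 17 (11.8%), beside 8.61% of all such features and 10.6% of the noncoding ones. Opposite THBS1, the protein-coding gene FSIP1 had 3021 ± 565 CPM in controls and 2372 ± 353 CPM in OE-labelled libraries, and THBS1-AS1 had 847 ± 153 and 712 ± 59.8 CPM. LIMD1-AS1, opposite the LIM protein gene LIMD1, had 294 ± 21.6 and 233 ± 30.0 CPM with groups that did not overlap (log2 fold change -0.34, SE 0.19, edgeR adjusted p = 0.830). CD37, opposite TEAD2, had 41.3 ± 5.34 and 25.8 ± 3.25 CPM, also without overlap (log2 fold change -0.68, SE 0.28, unadjusted p = 0.0242, edgeR adjusted p = 0.830). Of the exonic bases of FSIP1, 448 of 3452 lie opposite THBS1, and of those of CD37, 319 of 4161 lie opposite TEAD2. The strand setting of the counting is not given. Whether their counts come from their own transcripts or from those of the gene opposite was not tested and cannot be told from these counts. LIMD1-AS1 and CD37 were named after their values were seen.

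Over the 6 libraries, the members most alike were YAP1 and AXL, whose log2 CPM, each centred on its own mean, differed by 0.102 on average, and the least alike were LATS2 and AMOTL2 at 0.762. Among 3824 genes with at least 20 CPM and a usual symbol, those closest to CCN1 by this measure were RPL41 (0.0206), TRIOBP (0.0389) and TOMM40 (0.0406), where the median gene was at 0.304. Those closest to YAP1 were MLLT1 (0.0494), SLC7A5 (0.0533) and TAGLN2 (0.0549), where the median gene was at 0.298. With 6 libraries this is a description of likeness, and it carries no test.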

How the data were processed

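The mRNA libraries were made with a stranded kit, per the labels' protocols. Tools named in the submitters' processing notes are HISAT2 2.2.0, Trim Galore 0.6.4 and HTSeq 0.13.5, with the builds GRCh38 and hg38. The deposited values are raw counts per gene, in whole numbers. Neither the annotation release nor the strand setting is given in the sources used here.

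Columns were matched to libraries by the names in the labels, and groups come from titles. Counts of all features were fitted with edgeR 4.0.16 (R 4.3.3): filterByExpr by group, TMM scaling, a robust quasi-likelihood fit, glmQLFTest and Benjamini-Hochberg adjustment over all 11851 tested genes, with a threshold of 0.05. A positive log2 fold change means higher in OE-labelled libraries, and its standard error (SE) comes from the F statistic. The fitting code was tested on simulated counts. Alternatives were DESeq2 1.42.0, limma-voom (limma 3.58.1), other scalings and filters, a replicate block, the own-strand ratio as a covariate and leaving out each library.

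Exon models of GENCODE 29 (GRCh38) gave opposite-strand overlaps and exonic lengths (Python 3.11.15, pandas 2.3.3). The ratio used features with at least 50 overlapping bases, at least 90% of their exonic bases in the overlap and at least 60 counts, with 0.5 added to both counts. The members, lists, tests and the rule for named genes were chosen with earlier results of these data known. That rule took all 10 members, every feature opposite their exons, the most abundant 4 genes of each list where none passed, and the 3 genes most like CCN1 and YAP1. Exact tests cover the spread between 3 libraries a group.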

Additional observations from a re-analysis of the deposited data

How the results depend on the processing

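The count of genes past the threshold over the whole table was 0, and became 3 with no filter on low counts, 3 with DESeq2 and 1 with limma-voom. Leaving out 1 library at a time gave 0 to 922 over all genes, 0 to 8 among the other pathway genes and 0 among the 10 members, with 922 and 8 without control replicate 3. The members kept a count of 0 under every alternative run. The own-strand ratio as a covariate turned the sign of AJUBA (-0.10), AXL (-0.026), YAP1 (-0.027) and AMOTL2 (0.021) and of the features opposite AXL (0.38) and CCN2 (0.26). AMOTL2 also turned with library totals (0.083), a scaling that moved the median of all tested genes from 0.02 to 0.18. Leaving out libraries gave ranges of -0.23 to 0.17 for AMOTL2, -0.52 to 0.61 for ANKRD1, -0.54 to 0.17 for the feature opposite AXL and -0.72 to -0.25 for that opposite WWTR1. Those for YAP1, AXL and WWTR1 were 0.069 to 0.30, 0.093 to 0.32 and 0.049 to 0.26. The cause of these changes was not tested. CCN1, CCN2, LATS2, TEAD1 and WWTR1 were positive under all alternatives run.

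Both groups carry the replicate numbers 1 to 3, but the labels tie them to no shared culture. For that reason the numbers were not taken as pairs. Deviations from the group means correlated at -0.250, 0.156 and -0.0476 (across genes) for numbers 1, 2 and 3. For unlike numbers the correlations ran from -0.287 to 0.344. They cannot show whether cultures were shared, since libraries can also be alike for other reasons. With the replicate block, 0 genes passed, and ANKRD1 turned to 0.014.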
